A study of Mus musculus with 12 samples.

Results

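The genes described here are 10 contractile genes of myofibroblasts and vascular smooth muscle, Acta2, Tagln, Cnn1, Myh11, Myl9, Actg2, Des, Smtn, Lmod1 and Mylk. They were picked by their gene names in the deposited table, which has 21936 genes, and all 10 names were found there, each on 1 entry. The RNA came from livers of C57BL/6 mice, and 3 groups with 3 libraries each were compared. All 3 groups had received carbon tetrachloride (CCl4), a toxin that injures hepatocytes and leads to fibrosis, at 1 mL/kg into the peritoneum 2 times per week for 8 weeks, in male mice that were 6 weeks old when bought. The LFG group was sacrificed at the end of CCl4. REG mice were then given 200 µL of phosphate-buffered saline, and hADMSCs-Exo mice 250 µg of exosomes from human adipose mesenchymal stem cells in the same volume, 2 injections a week into the tail vein over 4 weeks. The hADMSCs group, which was given the cells themselves, was not analysed here. LFG therefore differs from the other groups in time after CCl4 as well as in treatment, and these cannot be told apart, whereas REG and hADMSCs-Exo differ in the injected material.

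Contraction of smooth muscle is switched on when myosin light chain kinase phosphorylates the regulatory light chain, so that myosin filaments pull on actin. In the injured liver, hepatic stellate cells and portal fibroblasts turn into myofibroblasts, which make collagen and take up part of this machinery, and alpha smooth muscle actin is the marker by which they are usually recognised. Vessel walls hold the mature form of the program, including smooth muscle myosin and calponin, in healthy liver too. Many of these genes are driven by serum response factor, which binds a DNA element called the CArG box.

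Such boxes are shown first because they are the element that contractile genes are known to share. RefSeq promoters (GRCm38.p6, the build of the table) were matched for 7 of the 10 genes, and 250 bases upstream of each start were searched on both strands. A CArG box, CC followed by 6 bases that are A or T and then GG, was found for 1 of the 7 genes, Myl9, and in 1.47% of all 32851 promoters. Boxes with a single G or C among those 6 bases, called CArG-like here, were found for 2 genes, Acta2 and Myl9, and in 7.24% of promoters. Each stretch has 30 bases, 5′ to 3′ on the strand of the gene, with the box in capitals.
Acta2, CArG-like, chr19:34255438-34255467, minus strand: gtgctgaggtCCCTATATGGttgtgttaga
Acta2, CArG-like, chr19:34255388-34255417, minus strand: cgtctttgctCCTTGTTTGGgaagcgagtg
Myl9, CArG, chr2:156775293-156775322, plus strand: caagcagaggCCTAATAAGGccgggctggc
Myl9, CArG-like, chr2:156775355-156775384, plus strand: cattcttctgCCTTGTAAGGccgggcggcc
The first bases of the boxes lie 84 and 34 bases upstream of the RefSeq start of Acta2, and 161 and 99 bases upstream of that of Myl9. GENCODE begins Acta2 further upstream, so that both of its stretches lie in exon sequence of that annotation, with all 30 bases in each, while the stretches of Myl9 lie in none. The MCAT element, CATTCC on either strand, was found for 4 of the 7 genes, Acta2, Smtn, Lmod1 and Mylk, and in 12.6% of promoters. Cnn1 and Des held none of these letters in this window, and Tagln, Myh11 and Actg2 were not searched.

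The libraries held 13837445 to 19840917 counts on 13924 to 15248 detected genes. LFG 3 stood apart from the other LFG libraries. It had the fewest counts and detected genes of the 9 libraries, and its TMM factor, edgeR's correction for the makeup of a library, was 0.808 against 1.38 and 1.09 in LFG 1 and LFG 2. The summed level of 12 matrix markers of activated stellate cells was 60.5 CPM (counts scaled to the library total) in LFG 3 against 2486 and 1295 in the other LFG libraries, and that of 8 macrophage markers was 91.6 against 1551 and 893 CPM. Hepatocyte markers were abundant in every library, at 116955 to 175769 CPM for 10 genes. Comparisons of the 10 genes with LFG are therefore given with and without LFG 3.

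The actins are described first, as FPKM, counts scaled to gene length and library total, which allows levels to be compared between genes. Acta2 (ENSMUSG00000035783, chr19:34241090-34255590, minus strand) encodes alpha smooth muscle actin. Its FPKM was 11.3, 8.03 and 0.230 in LFG 1, 2 and 3. It was 3.25, 4.66 and 1.74 in REG and 0.166, 0.581 and 0.885 in hADMSCs-Exo. Every hADMSCs-Exo library lay below every REG library, and LFG 3 lay among the hADMSCs-Exo libraries rather than with LFG 1 and LFG 2. Actg2 (ENSMUSG00000059430, chr6:83512905-83536265, minus strand), the gamma actin of visceral smooth muscle, was lower than Acta2 per length, with FPKM of at most 1.76. It had 11, 45 and 0 counts in LFG, 14, 19 and 14 in REG, and 0, 0 and 3 in hADMSCs-Exo, where the 2 libraries at 0 allow up to 3 counts each. Here too the REG and hADMSCs-Exo libraries did not overlap. Of 2146 stretches of 50 bases in Acta2 transcripts, 7 also occur in other genes, among them Actg1, and none occurs in Actg2.

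The second group consists of proteins bound to actin filaments. Cnn1 (ENSMUSG00000001349, chr9:22099216-22109630, plus strand) encodes calponin 1, which binds actin and restrains the myosin motor. It had 18, 86 and 0 counts in LFG, 16, 38 and 15 in REG, and 0, 2 and 2 in hADMSCs-Exo, again with no overlap of REG and hADMSCs-Exo. Lmod1 (ENSMUSG00000048096, chr1:135324807-135368065, plus strand), leiomodin 1, starts new actin filaments in smooth muscle. Its counts were 43, 60 and 4 in LFG, 22, 31 and 11 in REG, and 4, 4 and 5 in hADMSCs-Exo, so that its lowest REG library was above every hADMSCs-Exo library. Smtn (ENSMUSG00000020439, chr11:3517523-3540612, minus strand), smoothelin, is a structural protein of contractile smooth muscle. Its FPKM was 2.02, 1.61 and 0.511 in LFG, 0.685, 0.949 and 0.782 in REG, and 0.569, 0.735 and 0.484 in hADMSCs-Exo, where the highest hADMSCs-Exo library passed the lowest REG library.

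Tagln (ENSMUSG00000032085, chr9:45929619-45936058, minus strand) encodes transgelin, also called SM22 alpha, an abundant actin-binding protein of smooth muscle. It was close to undetected, with 4, 7 and 1 counts in LFG, 0 in each REG library, and 3, 0 and 0 in hADMSCs-Exo. The 3 REG libraries together allow up to 0.0534 CPM. Per length, its highest FPKM of the 9 libraries, 0.214 in LFG 2, was below the lowest of Acta2 in LFG, 0.230. Of the 1988 exon bases of Tagln, 67.9% are shared with exons of genes on the other strand, 62.4% with the antisense gene Gm48529 and 5.43% with Pcsk7. For Smtn this share was 16.3%, for Mylk 6.85%, for Des 5.86% and for the other 6 genes 0. The use of strand in counting is not given in the sources used here, and the part of these overlaps in the count of Tagln was not tested.

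The third group is the motor and its switch. Myh11 (ENSMUSG00000018830, chr16:14194535-14291372, minus strand), the smooth muscle myosin heavy chain, is held to be the most specific marker of mature smooth muscle. Its FPKM was 1.65, 3.67 and 0.124 in LFG, 0.956, 1.08 and 0.564 in REG, and 0.240, 0.336 and 0.271 in hADMSCs-Exo. The hADMSCs-Exo libraries were close together and all below REG. Myl9 (ENSMUSG00000067818, chr2:156775420-156781658, plus strand) is the regulatory light chain. It had FPKM of 6.93, 9.94 and 0.746 in LFG, 3.10, 5.76 and 2.99 in REG, and 0.523, 1.15 and 1.47 in hADMSCs-Exo, with REG and hADMSCs-Exo apart again. Mylk (ENSMUSG00000022836, chr16:34745210-35002420, plus strand), myosin light chain kinase, which phosphorylates Myl9, showed another pattern. Its FPKM was 4.89, 5.70 and 4.75 in LFG, 2.96, 3.11 and 4.59 in REG, and 3.26, 5.39 and 3.61 in hADMSCs-Exo, and LFG 3 was close to the other LFG libraries. Its transcripts are also made outside smooth muscle, and which cells gave its reads cannot be told from whole liver.

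Des (ENSMUSG00000026208, chr1:75360329-75368579, plus strand) encodes desmin, the intermediate filament of muscle that rodent stellate cells also contain. Its FPKM was 3.63, 3.22 and 0.481 in LFG, 1.57, 1.43 and 1.05 in REG, and 0.421, 0.939 and 0.612 in hADMSCs-Exo. Every hADMSCs-Exo library was below every REG library, by a narrower gap than for Acta2.

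**Figure D1:**
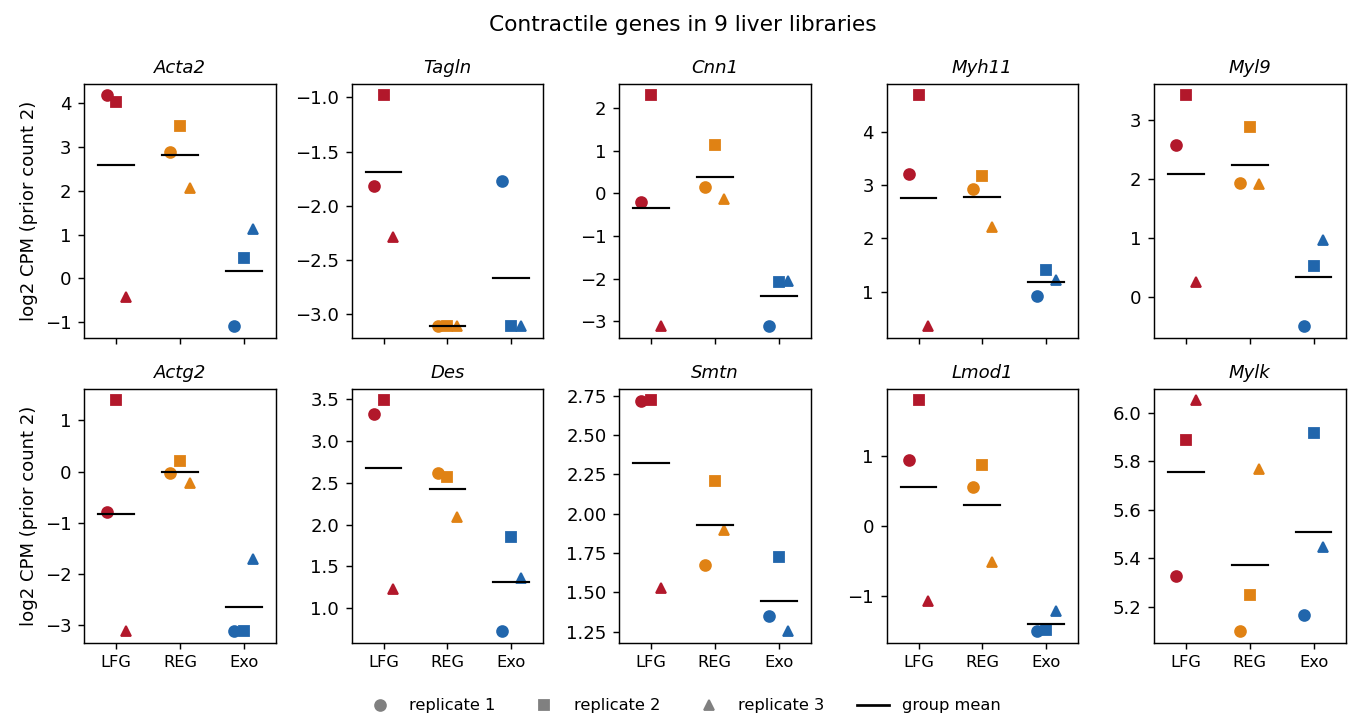
Log2 CPM (prior count 2, TMM-scaled over the 9 libraries) of each of the 10 genes, with 1 point per library, a symbol per replicate number, a bar at the group mean and an own vertical scale per gene; Exo stands for hADMSCs-Exo. For 7 genes, Acta2, Cnn1, Myh11, Myl9, Actg2, Des and Lmod1, all REG points lie above all hADMSCs-Exo points, and the triangle of LFG 3 lies at the bottom of LFG for every gene but Mylk.

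Added up without Mylk, the other 9 genes reached 27.1, 31.3 and 2.20 FPKM in LFG, 10.8, 15.6 and 8.0 in REG, and 2.07, 3.85 and 3.95 in hADMSCs-Exo. Acta2 and Myl9 were the main contributors in LFG 1 and LFG 2, at 35.3% and 21.7% of the sum of all 10 genes for LFG 1 and 21.7% and 26.9% for LFG 2. Mylk made up 15.3% and 15.4% there. In the hADMSCs-Exo libraries Mylk made up 61.1%, 58.4% and 47.7% and was the highest of the 10 genes in each, as in LFG 3 (68.3%) and REG 3 (36.4%). In RNA of whole liver, fewer cells of a type and less RNA per cell cannot be told apart.

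**Figure D2:**
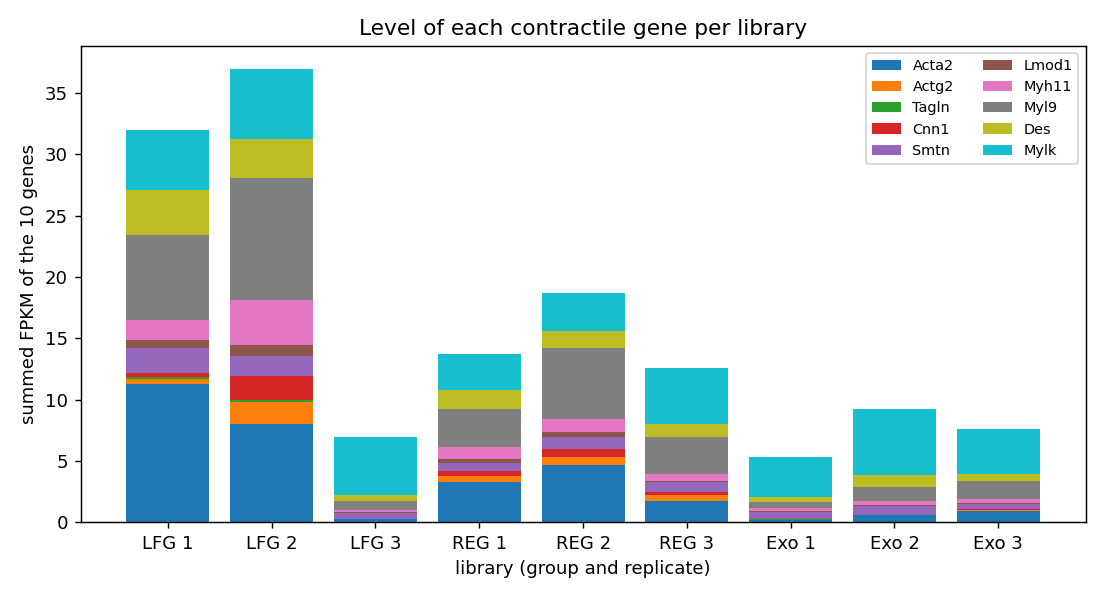
FPKM of the 10 genes stacked for each library, with the libraries in order of group and replicate and Exo standing for hADMSCs-Exo. The sum of all 10 was 31.9 and 37.0 in LFG 1 and LFG 2, 12.6 to 18.7 in REG, 5.33 to 9.24 in hADMSCs-Exo and 6.96 in LFG 3, and the share of Mylk was largest in the low libraries.

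The comparison of hADMSCs-Exo with REG asks what exosomes added to recovery after CCl4. Log2 fold changes of hADMSCs-Exo over REG, with standard errors, were -2.60 ± 0.58 for Acta2, -3.87 ± 0.78 for Cnn1, -3.70 ± 0.88 for Actg2, -1.96 ± 0.46 for Myl9, -1.68 ± 0.31 for Myh11 and -1.09 ± 0.34 for Des (n = 3 libraries per group). The values were -0.50 ± 0.27 for Smtn and 0.14 ± 0.24 for Mylk. By the quasi-likelihood test of edgeR, adjusted by Benjamini-Hochberg over 12337 genes, none of these passed an adjusted p of 0.05, the adjusted p-values being 0.358 for Acta2, Cnn1, Myh11 and Myl9, 0.369 for Actg2, 0.407 for Des, 0.569 for Smtn and 0.860 for Mylk. That test called 0.00811% of all genes at this threshold with a change of at least 1 on the log2 scale, the fold limit used throughout. Tagln and Lmod1 did not pass the filter on low counts and were not tested.

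Without adjustment, p by the same edgeR test was 0.000643 for Myh11, 0.00104 for Cnn1, 0.00197 for Acta2, 0.00262 for Myl9, 0.00284 for Actg2 and 0.0120 for Des. These 6 of the 8 tested genes passed an unadjusted p of 0.05 with the fold limit in the lower direction, against 1.17% of all tested genes. Cnn1 and Actg2 reached the limit of the filter on low counts in 0 of the hADMSCs-Exo libraries and were tested only through REG, so that their direction was partly fixed by the filter and their place in these counts is no support. Acta2 reached it in 2 of 3 hADMSCs-Exo libraries, and Myh11, Myl9, Des, Smtn and Mylk in 3. With at least 10 counts in every library, 3 of 5 tested genes passed, Myh11, Myl9 and Des, against 0.791% of all genes. Without a filter all 10 genes were tested, and 7 passed, the same 6 and Lmod1, against 1.29%. The same 6 were apart between the groups, with all hADMSCs-Exo libraries below all REG libraries, against 7.82% of all tested genes, and Lmod1 was the seventh of the 10 genes to be apart. By FPKM, with no filter, these 7 of 10 were apart, against 5.08% of all genes with a count. The median of the 8 genes, with Cnn1 and Actg2 among them, was -1.82, and that of all genes was 0.01. Among the 5 genes with at least 10 counts in every library the median was -1.10. DESeq2, run on the same counts, gave adjusted p-values of 0.000661 for Acta2, 0.00149 for Myh11, 0.0110 for Myl9 and 0.0168 for Cnn1, so that 4 genes were called against 0.276% of all genes called lower. It gave 0.0772 for Actg2 and 0.175 for Des. With all 9 libraries in one fit 5 of 9 tested genes passed, against 0.509% of all genes, and Myh11 and Des no longer did, with unadjusted p of 0.0695 and 0.0777 by edgeR. The 5 were Acta2, Myl9, Cnn1, Actg2 and Lmod1. The last 3 reached the limit of the filter in 0 of the hADMSCs-Exo libraries. They were tested only through the other groups and are no support. By limma voom 0 of the 8 genes were called, against 0.00811%. When single libraries were left out, Acta2 lay between -3.20 and -2.16 and Myh11 between -1.91 and -1.47. Des lay between -1.42 and -0.84 and was under the fold limit without REG 1 (-0.98) or hADMSCs-Exo 1 (-0.84). Actg2 lay between -6.95 and -3.15, and the value of -6.95, without hADMSCs-Exo 3, is set against libraries that are both at 0, so that it depends on the prior count.

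Counts of Cnn1, Actg2 and Lmod1 were small, so that counting error bears on the size of their differences. Summed over groups and divided by total counts, Cnn1 had 69 counts in REG and 4 in hADMSCs-Exo, a ratio of 15.3 with an exact 95% interval of 5.72 to 57.8. For Actg2, 47 and 3 counts gave a ratio of 13.9, with an interval of 4.48 to 69.8. For Lmod1, 64 and 13 counts gave 4.37, with an interval of 2.38 to 8.65. These intervals cover counting error only.

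In the comparison of hADMSCs-Exo with LFG, which spans the time after CCl4 and the treatment, 6 of the 10 genes were tested, and Cnn1, Actg2, Lmod1 and Tagln did not pass the filter. Log2 fold changes were -3.26 ± 1.15 for Acta2, -2.48 ± 0.94 for Myh11, -2.25 ± 0.83 for Myl9, -1.65 ± 0.64 for Des, -1.01 ± 0.43 for Smtn and -0.25 ± 0.27 for Mylk. No gene was called by edgeR, with adjusted p of at least 0.805 for each, and 0.0% of all 12489 genes were called. By unadjusted p and the fold limit 4 genes passed, Acta2, Myh11, Myl9 and Des, with p of 0.0257, 0.0340, 0.0312 and 0.0364 by edgeR, against 2.23% of all genes. With the replicate number as a block 0 passed, against 1.3% of all genes, and the values were -2.90 ± 1.71 for Acta2 and -1.80 ± 0.96 for Myh11. None of the 6 tested genes was apart between the groups, against 6.12% of all genes. DESeq2 and voom called none of the 6 either, against 0.312% and 0.00801% of all genes called lower.

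Without LFG 3, edgeR called 7 of 9 tested genes lower in hADMSCs-Exo, against 4.5% of all genes. Log2 fold changes with adjusted p were -3.78 and 0.0210 for Acta2, -2.98 and 0.0215 for Myh11, -3.24 and 0.0240 for Lmod1 and -2.06 and 0.0259 for Des. They were -2.70 and 0.0278 for Myl9, -4.95 and 0.0399 for Cnn1, and -1.28 and 0.0432 for Smtn. Actg2 was at -4.42 with an adjusted p of 0.0704 by the same edgeR fit, and Mylk at -0.08 with 0.874. By unadjusted p and the fold limit 8 of the 9 passed, all but Mylk, against 10.1% of all genes. On the scale of this fit 8 of the 9 genes were apart, all but Mylk, against 25.1% of all genes. The call on these genes against LFG thus rested on whether LFG 3 was included. Cnn1, Actg2 and Lmod1 reached the limit of the filter in 0 of the hADMSCs-Exo libraries and were tested only through LFG 1 and LFG 2, so that their direction was partly fixed by the filter, and 2 of the 7 calls, Cnn1 and Lmod1, are theirs. The other 5 called genes were among the 6 that were also tested with all libraries.

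REG was compared with LFG for recovery without exosomes, and this comparison uses the same LFG libraries as the one of hADMSCs-Exo with LFG. The 9 tested genes, all but Tagln, had log2 fold changes between -0.77 ± 0.88 for Myh11 and -0.18 ± 1.11 for Actg2, with -0.63 ± 0.95 for Acta2. Without LFG 2, 5 of the 9 turned above 0, Cnn1 at 1.62 ± 1.2, Actg2 at 1.73 ± 1.10, Myl9 at 0.47 ± 0.76, Myh11 at 0.43 ± 0.82 and Lmod1 at 0.12 ± 0.85, so that no direction was settled for these. Under the settings tried Acta2 ranged from -1.15 to -0.0058, Des from -0.93 to -0.19, Smtn from -0.78 to -0.30 and Mylk from -0.56 to -0.19, all below 0. The mean log2 CPM of Acta2 was 2.81 ± 0.72 in REG and 2.59 ± 2.62 in LFG (SD, n = 3). No gene was called, with adjusted p by edgeR of 0.618 for Mylk and higher for the others, and 0.0% of all genes were called. None passed the unadjusted p with the fold limit either, against 2.88% of all genes, and none of the 9 was apart on the scale of the fit, against 9.63%. DESeq2 called none of the 9 genes, against 1.17% of all genes called lower, and voom none, against 6.74%. By the unscaled FPKM 2 of the 10 genes were apart, Tagln and Mylk, against 10.6% of all genes with a count, but Mylk was not after TMM scaling.

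Without LFG 3 the log2 fold changes of REG over LFG were -1.15 ± 0.37 for Acta2 with an adjusted p of 0.0688 by edgeR, -1.27 ± 0.45 for Myh11 with 0.0841, and -0.93 ± 0.25 for Des with 0.0446, the last under the fold limit, an adjusted p that 8.97% of all genes passed in the lower direction. None of the 9 genes was called, against 6.94% of all genes called lower, and 2 genes, Acta2 and Myh11, passed the unadjusted p with the fold limit, against 11.0%. On the scale of this fit 4 of 9 genes were apart, Acta2, Des, Smtn and Lmod1, against 27.5% of all genes.

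**Figure D3:**
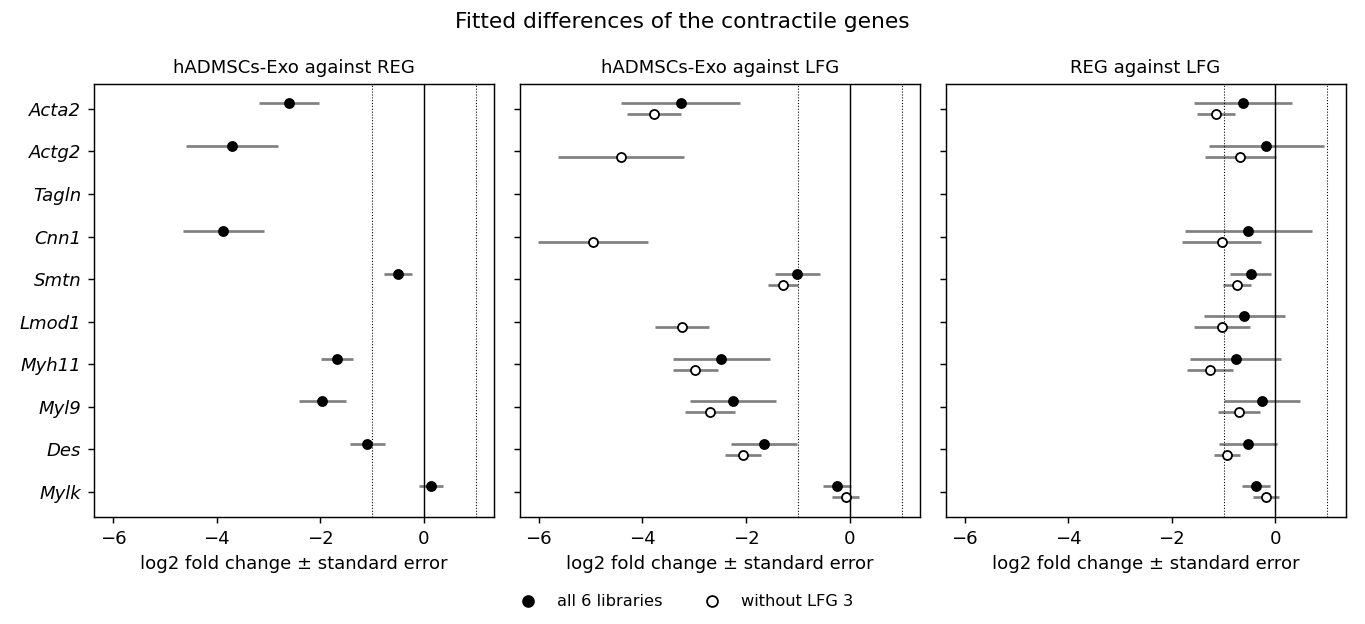
Log2 fold change from edgeR, with a standard error derived from its F statistic, for each gene in the 3 comparisons, with all 6 libraries (filled) and without LFG 3 (open). Dotted lines stand at a change of 1 in either direction. A missing point is a gene that did not pass the filter, and LFG is not part of the left comparison. Mylk lies near 0 in each panel, and the standard errors of the comparisons with LFG shrink for most genes without LFG 3, from 1.15 to 0.52 for Acta2 in hADMSCs-Exo against LFG.

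Differences between genes within a library, in which library scaling cancels, were compared over groups by two-sided exact permutation tests on log2 CPM. Acta2 minus Des was -1.14 ± 0.82 in hADMSCs-Exo and 0.39 ± 0.49 in REG (SD, n = 3, exact p = 0.1, adjusted 0.5). Acta2 minus Myh11 was -1.01 ± 0.96 and 0.04 ± 0.24 (exact p = 0.2, adjusted 0.667). Myl9 minus Mylk was -5.18 ± 0.61 and -3.13 ± 0.74 (exact p = 0.1, adjusted 0.5). In this design p cannot be below 0.1, so none of the 15 differences computed could pass the threshold.

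The wider contractile and actin-linked program is given for the comparison of hADMSCs-Exo with REG. Of its 34 listed genes, which include tropomyosins, filamin, vinculin and the subunits of myosin phosphatase, 28 were tested, and 19 of them had values below 0. None passed the unadjusted p with the fold limit, which 1.17% of all genes passed lower and 0.989% higher, so that 0 of 28 is near the share of all genes. The median was -0.14 with a range of -0.54 to 0.62. Among them were Tpm2 at -0.47 ± 0.39, Cald1 at -0.03 ± 0.19, Actn1 at 0.00 ± 0.21 and Flna at 0.17 ± 0.23. Myocd, the cofactor of serum response factor that drives smooth muscle genes, had 6, 5 and 0 counts in all LFG, REG and hADMSCs-Exo libraries together, too few to compare. Against LFG with all libraries, edgeR called 0 of 29 tested genes of this list in hADMSCs-Exo and 0 of 31 in REG, and 2 in each comparison passed the unadjusted p with the fold limit, against 2.23% and 2.88% of all genes. Without LFG 3 it called 4 of 31 lower in hADMSCs-Exo, against 4.5% of all genes, and 7 of 31 lower in REG, against 6.94%. Fhl2, Tagln2, Flna and Tpm4 were called in both, and these comparisons share LFG 1 and LFG 2.

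Markers of cells that could carry the contractile genes are given for the same comparison. Of 12 matrix markers of activated stellate cells 9 passed the unadjusted p with the fold limit, all lower, against 1.17% of all genes, with a median of -1.18, among them Col3a1 at -1.73 ± 0.36 and Col1a1 at -1.19 ± 0.31. Lox, at 0.62 ± 0.45, did not pass and was the only one above 0, with every hADMSCs-Exo library above every REG library. Their summed level was 245 to 436 CPM in REG and 98.8 to 262 CPM in hADMSCs-Exo. All 13 tested stellate markers of 14 had values below 0, with a median of -0.69, of which none passed that rule, and their sums were 162 to 303 CPM and 144 to 204 CPM. Of 9 tested portal fibroblast markers 4 passed lower, against 1.17% of all genes, Dpt at -1.94 ± 0.39, Fbln1 at -1.68 ± 0.39, Mfap4 at -1.71 ± 0.60 and Eln at -1.41 ± 0.29, while Thy1 at -0.01 ± 0.34 and Pi16 at 1.13 ± 0.62 did not pass. The sums of 10 were 26.1 to 42.0 CPM in REG and 12.9 to 26.5 CPM in hADMSCs-Exo.

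Of 15 markers of smooth muscle and pericytes 7 were tested, of which Ndufa4l2 passed lower at -1.0 ± 0.30 and Pcp4l1 higher at 1.22 ± 0.24, a rule that 0.989% of all genes passed in the higher direction. Notch3 was at -0.38 ± 0.41 and Rgs5 at -1.0 ± 0.49, the median was -0.31, and the sums of 32.8 to 66.9 CPM in REG and 22.4 to 52.2 CPM in hADMSCs-Exo overlapped. All 8 endothelial markers were also below 0, with a median of -0.61 and sums of 130 to 350 CPM in REG and 93.8 to 255 CPM in hADMSCs-Exo. The first 4 genes of the stellate list, Reln, Lrat, Ngfr and Hgf, and of the smooth muscle list, Notch3, Mcam, Rgs5 and Rgs4, had counts in every REG and hADMSCs-Exo library, while Ngfr was at 0 in LFG 3. Further down these lists Gfap, Casq2, Higd1b, Cspg4 and Sncg were at 0 in at least 1 REG or hADMSCs-Exo library, and Gli1 of the portal fibroblast list had at most 8 counts in any library. Sums of 16 striated muscle markers were 2.17 to 6.08 CPM in all 9 libraries, with 0 counts of Myh1 in each. The part of these cell types in the levels of the contractile genes was not tested.

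**Figure D4:**
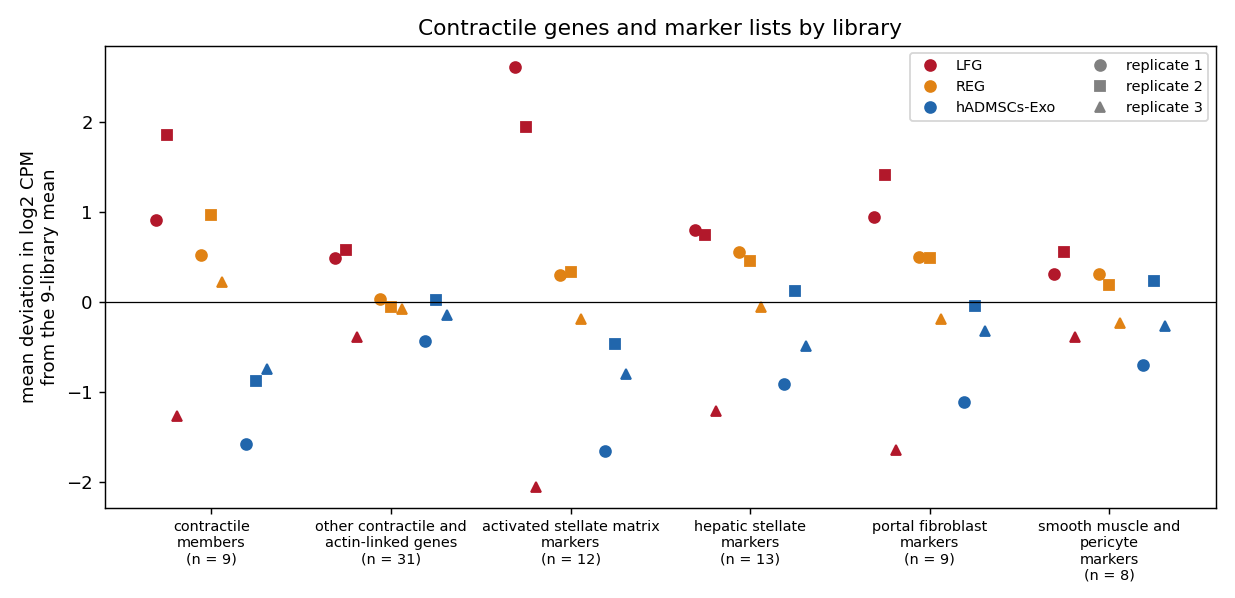
Mean over genes of log2 CPM less the gene's 9-library mean, over the genes of each list that passed the filter on low counts (n below each list), with 1 point per library, a colour per group and a symbol per replicate number. The contractile genes range from -1.58 in hADMSCs-Exo 1 to 1.85 in LFG 2 and the other contractile and actin-linked genes from -0.44 to 0.57, and LFG 3 is the lowest library for the activated matrix, stellate and portal fibroblast markers.

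The genes whose pattern over the 9 libraries was most like that of Acta2 were found by the root mean square difference of deviations in log2 CPM, among 10836 genes. They were Sparcl1 (0.533), Lum (0.560), Mmp2 (0.593), Itga8 (0.639) and Adamts2 (0.659), all nearer to it than Myl9, the nearest of the other contractile genes, at 0.687. Myh11 was most like Fbln1 (0.225), Dpt (0.354), Dkk3 (0.392), C7 (0.414) and Adamts2 (0.451), with Lmod1 at 0.416 and Myl9 at 0.452. Mylk was at 1.93 from Acta2 and 1.40 from Myh11. Log2 CPM of Fbln1 was 2.09, 3.0 and -0.62 in LFG, 1.73, 2.17 and 1.23 in REG, and -0.27, 0.53 and 0.17 in hADMSCs-Exo, so that it too was low in LFG 3. The likeness is a description over 9 libraries that share groups, depth and LFG 3.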

How the data were processed

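Liver libraries were prepared by the authors with a NEBNext Ultra kit and sequenced on a NovaSeq instrument. The submitters' processing notes name cutadapt 1.15, HISAT2 2.0.5, HTSeq 0.9.1, DESeq 1.30.0 and GRCm38, and the annotation version and the use of strand are not given in the sources used here. The authors deposited raw counts per gene, and beside them FPKM, which was recomputed from counts, lengths and totals with relative differences up to 9.19e-07. Columns named MSC_E were taken as hADMSCs-Exo.

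Counts were tested pairwise with edgeR 4.0.16 (R 4.3.3) by its two-sided quasi-likelihood test, after TMM scaling and removal of low counts by filterByExpr. The standard errors given for edgeR were derived as the absolute log2 fold change divided by the square root of the F statistic of this test. P-values were adjusted by Benjamini-Hochberg, and a call needed adjusted p under 0.05 and a change of 1 or more on the log2 scale. Alternatives used DESeq2 1.42.0, limma 3.58.1 (voom with quality weights), other scalings and filters, all 9 libraries in one fit, the replicate block and each library left out. Groups were called apart when no library of one reached the range of the other, on TMM-scaled CPM of the fit beside the share of all genes, and also by FPKM and by log2 CPM with a prior count of 2. Python 3.11.15 with scipy 1.17.1 (exact permutation tests), pandas 2.3.3 and matplotlib 3.10.9 was used. The edgeR fit was tested on simulated data.

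Annotation was GENCODE M21 and RefSeq. The sources do not say more of the replicates than that they are separate liver samples, so p-values measure the spread between these samples. Total counts of 13837445 to 19840917 make counting error small except for genes with few counts. The lowest chi-square per gene between replicates was 27.0, above sampling noise. Deviations of same-numbered libraries correlated by 0.101, 0.308 and 0.180 for hADMSCs-Exo and LFG, all over 0.1. They correlated by 0.159, 0.00938 and 0.0336 for hADMSCs-Exo and REG and by 0.415, -0.202 and 0.305 for REG and LFG. The main fits did not pair libraries. Replicate numbers entered only as a block in an alternative fit, which was run for each comparison.

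The 10 genes and all lists were chosen with earlier results of these data known. All 10 are named, other list genes may be named beside counts over their list, and for Acta2 and Myh11 the 5 nearest genes with a mean log2 CPM of at least 1 are named. The result of 1 other list is not reported here.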

Additional observations from a re-analysis of the deposited data

How the results depend on the processing

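Of 129 counts and medians for the 3 comparisons under other settings, 114 were kept. A count was kept within 1.5 times or where it was 0 in both settings. For a median the direction had to hold, within 1 SD between replicates, 0.908 on the log2 scale. That SD includes LFG 3 and is larger than the median of -0.52 for REG against LFG, so that 114 is a loose measure. Between hADMSCs-Exo and REG, edgeR called 0 of the 10 genes and DESeq2 called 4; 6 passed the unadjusted p with the fold limit (1.17% of all genes), and 3 did with at least 10 counts in every library (0.791%), a filter that fewer of the genes pass and under which the median of -1.82 was -1.10. With all 9 libraries in one fit 5 passed (0.509%), of which Lmod1 was not tested before, and Myh11 and Des did not. Of the 5, Cnn1, Actg2 and Lmod1 were tested only through REG and LFG libraries, so that their direction was partly fixed by the filter. Between hADMSCs-Exo and LFG, leaving out a library gave 0 to 7 called genes and 0 to 8 genes by unadjusted p, the highest without LFG 3. That count, 4 with all libraries, beside 2.23% of all genes, was 1 without LFG 1 (1.47%), 0 without LFG 2 (1.22%), 8 without LFG 3 (10.1%), 1 without hADMSCs-Exo 1 (1.29%), 2 without hADMSCs-Exo 2 (1.59%), 7 with all 9 libraries in one fit (3.52%) and 0 with the replicate block (1.3%), so that the share of all genes moved too. Acta2, Myl9 and Lmod1 passed without hADMSCs-Exo 3 (1.12%). Lmod1 was the 1 gene without hADMSCs-Exo 1 and, with Des, made up the 2 without hADMSCs-Exo 2. Cnn1, Actg2 and Lmod1 were among the 7 in one fit and the 8 without LFG 3. These genes reached the limit of the filter in 0 hADMSCs-Exo libraries, so that their direction was partly fixed by it. The median of -1.95 ranged from -2.98 without LFG 3 to -1.29 without LFG 2. Between REG and LFG, 0 genes passed the unadjusted p, beside 2.88% of all genes, and 1 did by voom (10.1%), 1 (Tagln) without a filter (2.94%) and 0 to 2 with a library left out, the highest without LFG 3 (11.0%). There, with a library left out, the median of -0.52 ranged from -0.93 to 0.12, Cnn1 from -1.03 to 1.62, Actg2 from -0.68 to 1.73, Myl9 from -0.70 to 0.47, Myh11 from -1.27 to 0.43 and Lmod1 from -1.03 to 0.12, lowest without LFG 3 and above 0 without LFG 2. With the replicate block Cnn1 (0.41), Actg2 (0.63) and Myl9 (0.086) were above 0. The cause was not tested. Mylk between hADMSCs-Exo and REG ranged from -0.091 without hADMSCs-Exo 2 to 0.36 without REG 3. The difference of Acta2 minus Actg2 within libraries, -0.01 and -0.61 for hADMSCs-Exo against REG and LFG, was 1.22 and 0.039 with a prior count of 0.5, since Actg2 is near 0 in hADMSCs-Exo. For single genes, 305 of 314 alternative fits kept the direction.

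Over all genes, library totals alone moved the median log2 fold change to 0.07, -0.18 and -0.27, from 0.01, -0.06 and -0.07, for hADMSCs-Exo against REG, hADMSCs-Exo against LFG and REG against LFG. Genes called over all genes were 1, 0 and 0 by edgeR, 67, 60 and 239 by DESeq2, and 3, 1 and 1285 by voom, and without LFG 3 edgeR called 773 and 1391 in the comparisons with LFG. At an unadjusted p under 0.05, edgeR had 1237, 747 and 1417 genes. The replicate block changed no other call on the 10 genes. Depth limits Tagln, and Cnn1, Actg2 and Lmod1 in hADMSCs-Exo.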

Other observations

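Of the other lists, between hADMSCs-Exo and REG, median log2 fold changes were -0.38 for 5 tested cholangiocyte markers, 0.70 for 4 mesothelial markers, -0.10 for 4 intestinal markers, 0.04 for 8 macrophage markers and -0.03 for 10 hepatocyte markers, and no gene of these lists passed the unadjusted p with the fold limit by edgeR. Of 16 striated muscle markers 2 were tested, Mylpf at -0.29 ± 0.56 and Tnnt2, troponin T of the heart, at -2.72 ± 0.60 with an unadjusted p of 0.00184 by edgeR. Tnnt2 was lower in every hADMSCs-Exo library than in every REG library, as were 7.82% of all genes. The unadjusted p with the fold limit was passed lower by 1.17%. Tnnt2 had 3 to 5 counts per hADMSCs-Exo library and 13 to 45 per REG library. It thus passed the filter on low counts only through REG, so that its direction was partly fixed and is no support.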
